A study of Rattus norvegicus with 18 samples.

Results

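The enzymes described here make serine from a glycolytic intermediate and pass its side-chain carbon through folate. They were chosen by name, as 9 rat genes (Phgdh, Psat1, Psph, Shmt1, Shmt2, Mthfd1, Mthfd2, Mthfd1l and Aldh1l2), and all 9 were found among the 13188 genes of the deposited table. The cells were HO15.19, myc-/- Rat1 fibroblasts, cultured in 6 groups of 3: myc-/-, myc-/- + MYC (stably expressing human MYC from an exogenous viral promoter), myc-/- siCtrl and myc-/- + MYC siCtrl (both with a control siRNA), and myc-/- + MYC with siAHR-2 or siAHR-5, which are siRNAs against the aryl hydrocarbon receptor (AHR). All 18 cultures lack functional rat myc, and siRNA, where used, was given at 40 nM for 48 h. Each value is a normalized expression value on a log2 scale, and its read depth is unknown. Whether a line is 1 clone, or the cultures of a group were grown apart, is not given in the sources used here, so p-values measure the spread between these cultures, which may be technical.

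In the first steps of the pathway, PHGDH oxidizes 3-phosphoglycerate, PSAT1 transfers an amino group to the product and PSPH removes the phosphate to release serine. Serine hydroxymethyltransferase then splits serine into glycine and a one-carbon unit bound to tetrahydrofolate, in the cytosol by SHMT1 and in mitochondria by SHMT2. In mitochondria MTHFD2 and MTHFD1L oxidize that unit and release it as formate, ALDH1L2 can burn it to carbon dioxide, and in the cytosol MTHFD1 takes formate up again for purine and thymidylate synthesis. Proliferating cells rely on this supply, and MYC and the stress factor ATF4 are both known to activate genes of the pathway.

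The libraries lay on 2 scales, here called panels. The leading principal component, with 74.7% of the variance, set apart 6 libraries (myc-/- siCtrl and myc-/- + MYC) from the other 12, so groups were compared only inside each panel. Within the 6-library panel, the labels name no siRNA for cells with MYC and siCtrl for those without it, and within the 12-library panel, which also holds siAHR-2 and siAHR-5, this was the other way round. By these labels the effects of MYC and of transfection cannot be told apart in either panel. The deposited columns of the 6-library panel are headed only control and Myc, and whether the labels of the 2 groups without MYC were exchanged, in which case transfection would not differ within a panel, was not tested. Matching groups on the transfection label would cross the panels, and the myc-/- + MYC cultures less the myc-/- cultures gave −0.24 for Mthfd1, −0.29 for Shmt1 and −1.42 for Psat1, opposite in sign to the 6-library comparison, while the siCtrl pair gave 1.13 for Phgdh and 2.23 for Psat1, opposite in sign to the 12-library comparison. Rat Myc was still listed with values of 9.16 to 9.47 in myc-/- siCtrl and 8.01 to 8.08 in myc-/- + MYC libraries, and 10.82 to 10.94 in myc-/- and 8.16 to 8.27 in myc-/- + MYC siCtrl libraries. Its signal therefore gives no check of the knockout, and the human transgene was not analysed here. In myc-/- + MYC cells Ahr was 13.22 to 13.34 with siCtrl, 11.97 to 12.03 with siAHR-2 and 11.76 to 11.95 with siAHR-5. It was thus lower with both siRNAs against AHR, without overlap. In bulk RNA fewer cells of a type and less RNA per cell cannot be told apart. Of 11 fibroblast markers 10 reached a value of 5 in each panel, and the exception was Col1a2 (3.64 to 4.13). On a log2 scale the summed fibroblast markers ranged from 20.83 to 20.85 in myc-/- siCtrl, 19.88 to 19.96 in myc-/- + MYC, 21.99 to 22.22 in myc-/- and 20.26 to 20.28 in myc-/- + MYC siCtrl libraries, so that the sums were lower with MYC in both panels. A few high markers (Col1a1, Fn1 and Vim) weigh most in these sums, and not all markers lay on that side. In the 6-library panel Col3a1 was 15.66 to 15.71 without and 16.92 to 17.07 with MYC, Pdgfra 14.17 to 14.18 and 14.37 to 14.49, and Vim 18.32 to 18.39 and 18.41 to 18.57. The immune markers listed summed to 9.61 to 9.72 in myc-/- siCtrl and 8.36 to 8.50 in myc-/- + MYC libraries, and to 8.47 to 8.56 in myc-/- and 7.93 to 8.11 in myc-/- + MYC siCtrl libraries, with Ptprc below 5 throughout. Epithelial markers summed to 8.18 to 8.25 and 8.63 to 8.81, and to 7.76 to 7.92 and 8.77 to 9.11, in the same order of groups, with Epcam and Cdh1 below 5, and endothelial markers to 8.09 to 8.20 and 8.44 to 8.53, and to 9.28 to 9.43 and 9.51 to 9.63. The part of these shifts in the results below was not tested.

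Promoter windows of 300 bases (250 before to 50 after a gene's start) were taken for 7 of the 9 genes, all but Mthfd1 and Aldh1l2, from RefSeq, build GRCr8, while the reads were aligned to rn6. They were searched on both strands for the E-box CACGTG, to which MYC binds with MAX, for GCGTG, the core of the element bound by AHR, and for TGATGNAA, part of the composite element of ATF4. The window of Shmt1 held 2 E-boxes, and 0 were found in the other 6 windows, those of Shmt2 and Psph, which had higher values with MYC in both panels as well, included. Among 10312 windows of the genes in the table, 8.73% held at least 1 E-box and 0.912% held 2 or more. GCGTG was found in the windows of Psat1 (2 matches), Phgdh (1) and Shmt2 (1), against 46.7% of all windows, and TGATGNAA in 0 of 7, against 2.14%. Matches of different motifs did not overlap each other. The windows of Shmt1, of Shmt2, its mitochondrial counterpart, and of Psat1, whose MYC effect differed most between the panels, are shown 5′ to 3′ because the results turn on these genes. Capitals mark CACGTG in Shmt1 and GCGTG (or its reverse complement CACGC) in the other 2. A match is a description of letters and not a site of binding.
Shmt1, chr10:45990292-45990591, minus strand: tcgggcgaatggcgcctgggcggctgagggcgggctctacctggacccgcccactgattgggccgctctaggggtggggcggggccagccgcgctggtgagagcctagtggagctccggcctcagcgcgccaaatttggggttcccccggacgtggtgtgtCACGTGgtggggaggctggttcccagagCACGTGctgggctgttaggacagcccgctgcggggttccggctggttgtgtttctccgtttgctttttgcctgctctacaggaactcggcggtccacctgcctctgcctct
Shmt2, chr7:65249518-65249817, minus strand: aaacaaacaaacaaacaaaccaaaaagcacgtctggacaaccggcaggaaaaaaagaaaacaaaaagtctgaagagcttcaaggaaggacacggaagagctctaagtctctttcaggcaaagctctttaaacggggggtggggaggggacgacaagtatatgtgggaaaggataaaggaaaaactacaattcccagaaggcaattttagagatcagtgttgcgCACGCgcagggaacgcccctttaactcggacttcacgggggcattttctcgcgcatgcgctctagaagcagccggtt
Psat1, chr1:222645359-222645658, minus strand: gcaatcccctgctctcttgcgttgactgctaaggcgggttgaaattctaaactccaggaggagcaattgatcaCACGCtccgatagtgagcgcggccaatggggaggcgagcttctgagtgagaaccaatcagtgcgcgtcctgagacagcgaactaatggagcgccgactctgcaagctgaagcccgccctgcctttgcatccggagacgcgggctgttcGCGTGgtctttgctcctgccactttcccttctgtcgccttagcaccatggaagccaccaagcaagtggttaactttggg

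The comparison of cells with and without MYC asks which genes MYC alters. The cytosolic folate enzymes Shmt1 and Mthfd1 rose with MYC in both panels. In the serine branch, Psat1 rose in the 6-library panel alone and Phgdh fell in the 12-library panel alone, and the effects on both differed between the panels. The mitochondrial enzymes Shmt2, Mthfd2, Mthfd1l and Aldh1l2 passed the cutoffs in neither panel. A gene passed when it had a log2 fold change (log2FC) of 0.585 or more either way, that is 1.5-fold, and an adjusted p of at most 0.01 in limma, a linear model with a shared estimate of variance. By this rule 3 of the 9 genes passed in the 6-library panel, all higher, where 26.8% of all genes passed (12.5% higher and 14.3% lower). With 12 libraries, 3 also passed, 2 higher and 1 lower, where 25.5% of all genes passed (10.8% higher and 14.7% lower). The share of the 9 genes that passed was therefore near that of all genes in each panel. The median log2FC of the 9 genes was 0.41 in the 6-library panel and −9.38e-05 in the 12-library panel, while that of all genes was −0.00382 and −1.40e-04.

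**Figure D1:**
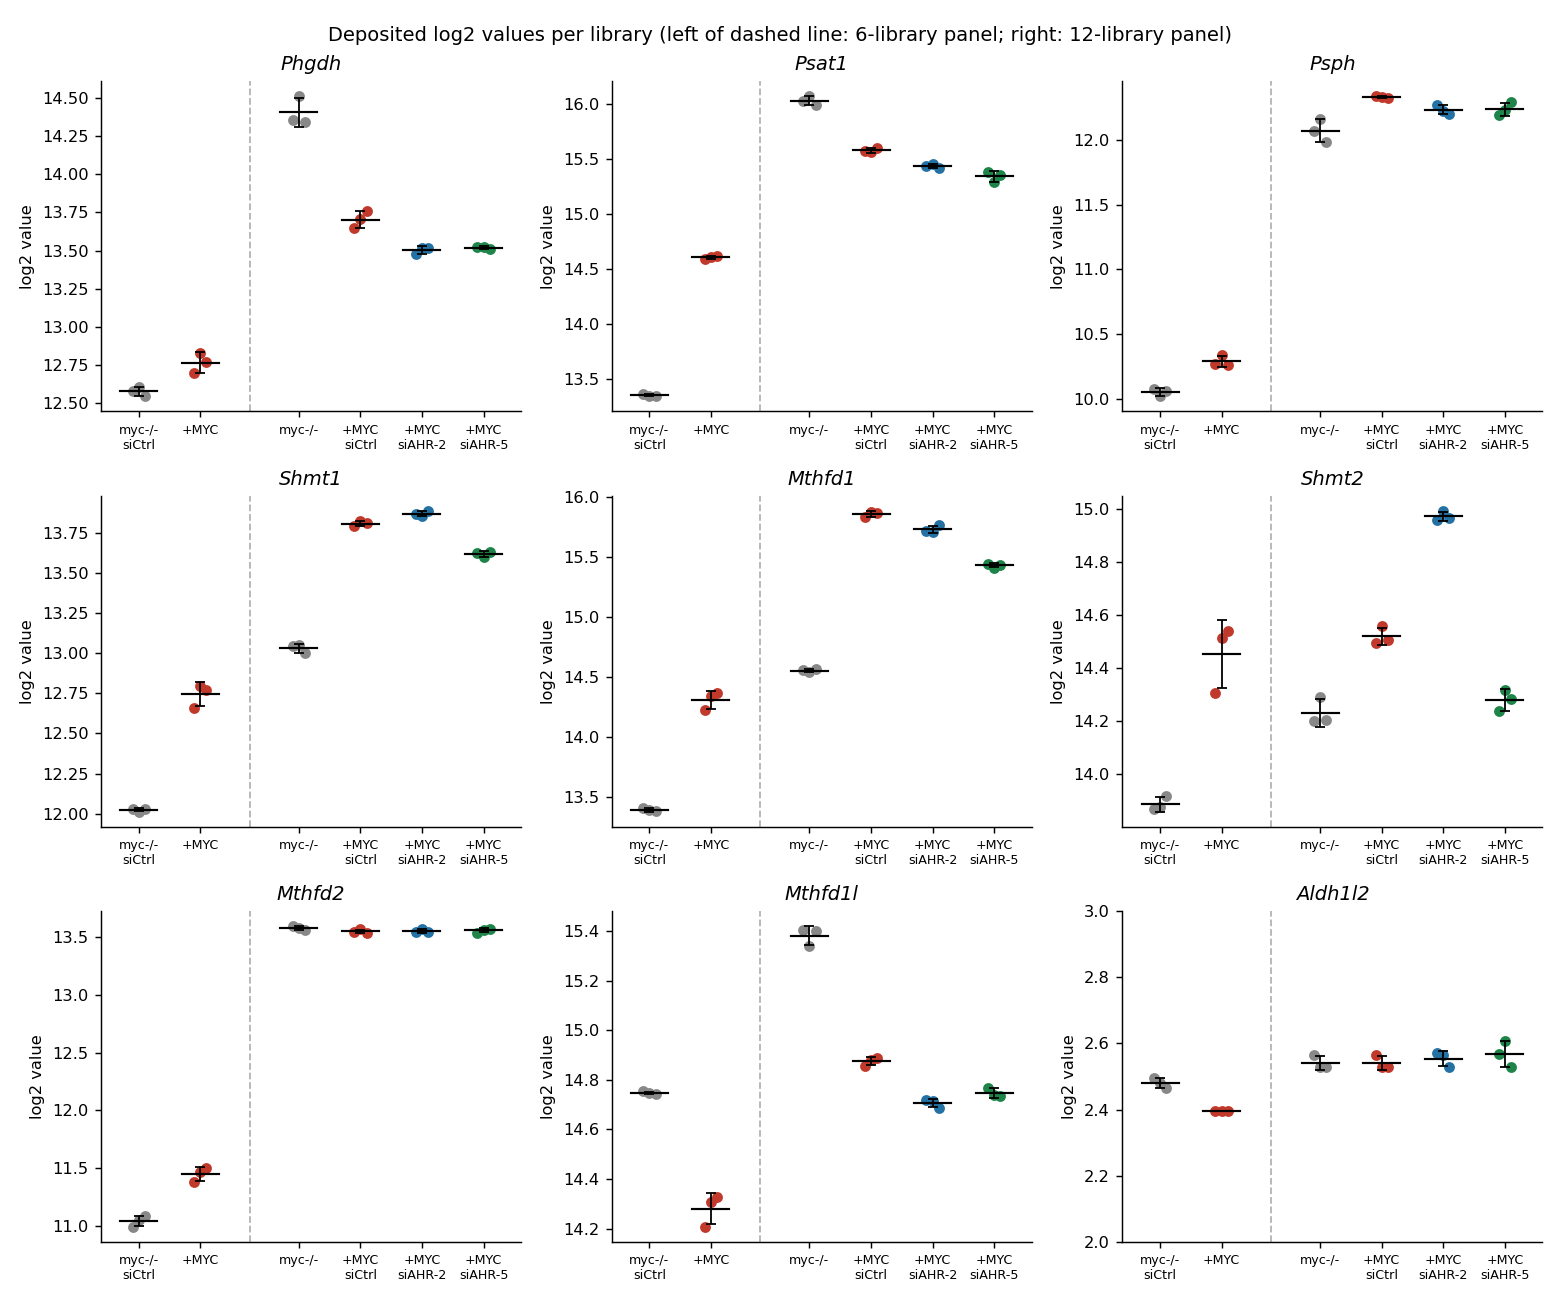
Deposited log2 values of each of the 9 enzymes in every library. Points are cultures, horizontal bars group means and whiskers ± SD (n = 3), and the dashed line parts the 6-library panel from the 12-library panel, whose scales differ, so only points on 1 side of it can be compared. Shmt1 and Mthfd1 are higher with MYC on both sides, Psat1 is higher on the left and lower on the right, and the scale of Aldh1l2 runs only from 2 to 3.

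Mthfd1, the trifunctional cytosolic enzyme that converts formate into the folate forms used for nucleotides, had the largest rise of the 9 genes in the 12-library panel. Its values were 13.41, 13.39 and 13.38 in myc-/- siCtrl and 14.22, 14.34 and 14.37 in myc-/- + MYC cultures. They were 14.55, 14.54 and 14.56 in myc-/- and 15.83, 15.88 and 15.87 in myc-/- + MYC siCtrl cultures. All cultures with MYC lay above all without it in each panel. The log2FC was 0.92 in the 6-library panel (standard error, SE, 0.0381; adjusted p = 1.57e-09) and 1.31 in the 12-library panel (SE 0.0249, adjusted p = 4.17e-07), folds of 1.89 and 2.47. The difference between the panels, 0.39 (95% confidence interval 0.27 to 0.51, adjusted p = 2.26e-05), was below the fold cutoff.

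Shmt1, the cytosolic serine hydroxymethyltransferase with the 2 CACGTG matches shown above, had values of 12.03, 12.01 and 12.03 in myc-/- siCtrl and 12.66, 12.80 and 12.77 in myc-/- + MYC cultures. Among the 12 libraries they were 13.04, 13.05 and 13.00 in myc-/- and 13.79, 13.82 and 13.81 in myc-/- + MYC siCtrl cultures. The groups did not overlap in either panel, and its log2FC was alike in both, 0.72 (SE 0.0403, adjusted p = 1.94e-08) and 0.78 (SE 0.0267, adjusted p = 3.28e-06). The difference was 0.057, with a 95% confidence interval of −0.064 to 0.18 (adjusted p = 0.420).

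Psat1, the aminotransferase of serine synthesis, showed the widest gap between the panels. Among the 6 libraries it was 13.36, 13.35 and 13.35 in myc-/- siCtrl and 14.59, 14.61 and 14.62 in myc-/- + MYC cultures. Among the 12 libraries it was 16.03, 16.07 and 15.99 in myc-/- and 15.58, 15.56 and 15.60 in myc-/- + MYC siCtrl cultures. The cultures with MYC were thus all higher in the first case and all lower in the second. The log2FC was 1.25 in the 6-library panel (SE 0.0267, adjusted p = 7.82e-12), a fold of 2.39. The value of −0.45 in the 12-library panel (SE 0.0315, adjusted p = 5.50e-05) was below the fold cutoff. The difference between them, 12-library panel minus 6-library panel, was −1.70 (SE 0.0457, adjusted p = 5.20e-13) and passed both cutoffs, as it did for 16.5% of all genes (6.79% higher and 9.67% lower).

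Phgdh, the first enzyme of the branch, had values of 12.58, 12.61 and 12.54 in myc-/- siCtrl and 12.70, 12.83 and 12.77 in myc-/- + MYC cultures. The other panel had myc-/- cultures at 14.36, 14.51 and 14.34 and myc-/- + MYC siCtrl cultures at 13.65, 13.71 and 13.76. Again the groups did not overlap, with MYC on the higher side in the 6-library panel and on the lower side in the 12-library panel. Its log2FC was 0.19 in the 6-library panel (adjusted p = 0.00106), below the fold cutoff, and Phgdh fell by 0.70 in the 12-library panel (SE 0.0563, adjusted p = 9.70e-05). The difference of −0.89 (SE 0.0711, adjusted p = 6.87e-08) passed both cutoffs. Psph, the phosphatase that ends the branch, had log2FC of 0.24 and 0.26, both below the fold cutoff, and their difference was 0.022 (95% confidence interval −0.13 to 0.17). Of the 9 genes, 2 passed in the test of the difference, both lower (9.67% of all genes were), and they were the first and second enzymes of serine synthesis.

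**Figure D2:**
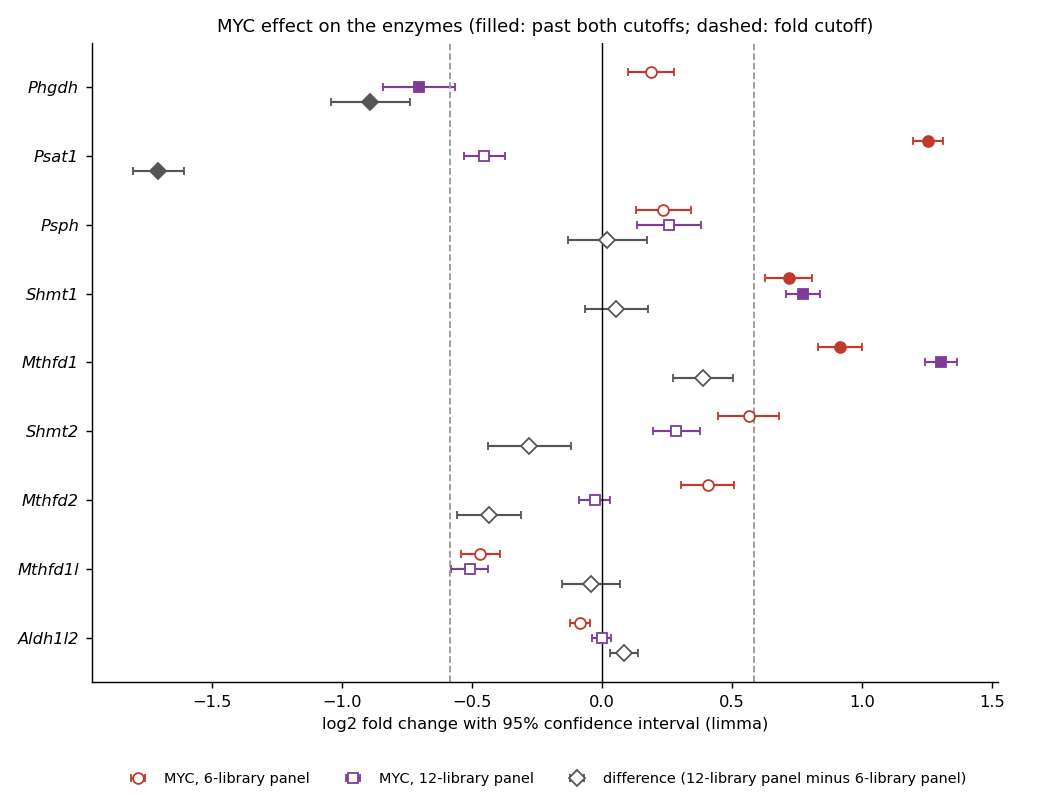
Log2 fold change of each enzyme with MYC in the 6-library panel (circles) and the 12-library panel (squares), and their difference (diamonds), with 95% confidence intervals from limma. Filled symbols passed both cutoffs and dashed lines mark the fold cutoff, so that Shmt1 and Mthfd1 lie beyond the right-hand line in both panels, and Psat1 and Phgdh differ between the panels by −1.70 and −0.89.

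Shmt2, which makes the mitochondrial one-carbon unit, came closest to the cutoffs among the mitochondrial enzymes. It was 13.87, 13.87 and 13.92 in myc-/- siCtrl and 14.30, 14.51 and 14.54 in myc-/- + MYC cultures. The log2FC of 0.57 (SE 0.0532, adjusted p = 1.71e-06) missed the fold cutoff, and was past it without replicate 1 of myc-/- + MYC (0.64) and after quantile normalization (0.78). Among the 12 libraries the log2FC was 0.29 (adjusted p = 7.29e-04), with myc-/- cultures at 14.20, 14.29 and 14.20 and myc-/- + MYC siCtrl cultures at 14.49, 14.56 and 14.51. With MYC the values were higher in both panels without overlap, by less than the fold cutoff.

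Mthfd2, the mitochondrial dehydrogenase and cyclohydrolase, had values of 10.99, 11.05 and 11.08 in myc-/- siCtrl and 11.38, 11.46 and 11.50 in myc-/- + MYC cultures, a log2FC of 0.41 (adjusted p = 7.58e-06). Its values in the other panel lay between 13.54 and 13.59 in all 12 libraries. Its log2FC with MYC there was −0.026, with a 95% confidence interval of −0.086 to 0.033. It had the smallest range of the 9 enzymes in that panel, and its groups overlapped. The difference between the panels was −0.43 (adjusted p = 1.53e-05), below the fold cutoff.

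Mthfd1l, the mitochondrial synthetase that releases formate, was lower with MYC in both panels, without overlap. It was 14.75, 14.75 and 14.74 in myc-/- siCtrl and 14.21, 14.31 and 14.33 in myc-/- + MYC cultures, a log2FC of −0.47 (adjusted p = 1.84e-07). Among the 12 libraries the values were 15.41, 15.34 and 15.40 in myc-/- and 14.86, 14.88 and 14.89 in myc-/- + MYC siCtrl cultures, a log2FC of −0.51 (adjusted p = 2.31e-05). Both were below the fold cutoff, and their difference was −0.040 (95% confidence interval −0.15 to 0.072). Mthfd1, the cytosolic enzyme that takes formate up, was the one of this pair that rose.

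Aldh1l2, the mitochondrial dehydrogenase that oxidizes the one-carbon unit, stayed between 2.40 and 2.61 in all 18 libraries. Its range was 0.0997 in the 6-library panel and 0.0785 in the 12-library panel, where genes with a mean between 2 and 3 had median ranges of 0.0894 (494 genes) and 0.0856 (532 genes). Genes at such values varied about as little, so a change of Aldh1l2 may not have been detectable.

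Without the fold cutoff, at an adjusted p below 0.05, 9 of the 9 enzymes passed with MYC in the 6-library panel (7 higher and 2 lower), where 76.2% of all genes did. One of the lower values is that of Aldh1l2 (−0.085), which at its low level is not read as a difference. With 12 libraries, 7 of 9 differed (4 higher and 3 lower), where 64.7% of all genes did. The groups did not overlap for 9 of the 9 enzymes in the 6-library panel and for 7 in the 12-library panel, against 78.8% and 70.5% of all genes.

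Around the 9 enzymes, 55 other genes of folate handling, glycine cleavage, serine and glycine transport, serine use and the methionine cycle were in the table, of 58 listed. With 6 libraries, 18 of the 55 passed the cutoffs, 12 higher and 6 lower, where 26.8% of all genes passed, and with 12 libraries there were 17, 12 higher and 5 lower, where 25.5% of all genes passed. Of these, 13 were called on the same side in both panels, 9 higher and 4 lower, which is 72.2% of those called in the 6-library panel and 76.5% in the 12-library panel. For all genes these shares were 58.8% and 61.9%. The median log2FC of the 55 genes was 0.044 in the 6-library panel and 0.072 in the 12-library panel.

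Of 9 folate uptake and retention genes, 2 passed in the 6-library panel and 3 in the 12-library panel, all higher, beside 26.8% and 25.5% of all genes. Fpgs, which adds the glutamate tail that keeps folate in the cell, rose by 1.06 and 0.85 on the log2 scale. Slc19a1, the reduced folate carrier, rose by 1.01 in the 6-library panel, and its log2FC of 0.58 in the 12-library panel was just below the cutoff. Slc25a32, the mitochondrial folate carrier, and Ggh, which trims the glutamate tail, rose by 0.79 and 0.71 in the 12-library panel and had log2FC of 0.51 and 0.45 in the 6-library panel, below the cutoff. The adjusted p of these 5 rises lay between 4.92e-10 and 2.50e-04.

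Glycine cleavage breaks glycine down in mitochondria to give another one-carbon unit. Of its 4 genes, Amt (1.25 and 0.82) and Gcsh (1.11 and 0.81) rose in both panels, as did 906 of the 13188 genes tested. Gldc, the decarboxylase of the system, had log2FC of −0.014 and −0.30 and Dld 0.016 and 0.20, below the cutoff. Among the folate-using nucleotide genes, Gart, a purine synthesis enzyme, rose in both panels (0.59 and 0.73), although its value in the 6-library panel was below the fold cutoff without replicate 2 of myc-/- + MYC (0.57) and after median centring (0.55). Tyms, thymidylate synthase, fell by 0.90 in the 6-library panel and had a log2FC of 0.49 in the 12-library panel, below the cutoff. The difference of Tyms between the panels, 1.38, passed both cutoffs (adjusted p = 4.71e-11).

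Aldh1l1, the cytosolic counterpart of Aldh1l2, had the largest change of the 55 genes in the 6-library panel. It lay between 12.03 and 12.09 in myc-/- siCtrl and between 7.95 and 8.03 in myc-/- + MYC libraries, and fell by 4.06 on the log2 scale (adjusted p = 1.64e-13). Among the 12 libraries it lay between 7.27 and 7.36 in myc-/- and between 6.55 and 6.68 in myc-/- + MYC siCtrl libraries, and fell by 0.71 (−0.49 after quantile normalization, below the cutoff). Mtfmt, which formylates the mitochondrial initiator tRNA, rose by 0.64 in the 6-library panel (0.58 after quantile normalization, below the cutoff) and had a log2FC of 0.22 in the 12-library panel.

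Serine and glycine transport had 5 of 10 genes past the cutoffs in the 6-library panel, 4 higher and 1 lower, and 6 of 10 in the 12-library panel, 4 higher and 2 lower, beside 26.8% and 25.5% of all genes. The neutral amino acid transporters Slc38a1 (1.84 and 1.56) and Slc1a5 (1.28 and 1.42) rose in both panels. Slc25a38, a mitochondrial glycine carrier, rose in both panels as well (0.87 and 0.79). Slc1a4, of the same list and named after its values were seen, was lower in both panels. Its log2FC was −0.59, just past the fold cutoff, in the 6-library panel and −0.95 in the 12-library panel. Sfxn3, a sideroflexin, had a log2FC of −1.02 in the 12-library panel and −0.20, below the cutoff, in the 6-library panel. The other sideroflexins of the list, named after their values were seen, did not share this fall. Sfxn1 rose in both panels (0.75 in the 6-library panel and 0.84 in the 12-library panel), and Sfxn2 had log2FC of 0.0017 and −0.044, below the cutoff. Among 11 genes of serine use, Gcat, which acts between glycine and threonine breakdown, rose (0.79 and 1.29), Ptdss2, a phosphatidylserine synthase, had log2FC of −0.81 and −0.83, and Cth, which makes cysteine, rose by 1.10 in the 12-library panel, with 0.37, below the cutoff, in the 6-library panel. Of 13 genes of the methionine cycle and methyl donors, 3 passed in the 6-library panel and 1 in the 12-library panel. Mat2b, the regulatory subunit of a methionine adenosyltransferase, had log2FC of −0.66 (−0.48 after quantile normalization, below the cutoff) and −1.55. Mat2a, the catalytic subunit that goes with Mat2b, was named after its values were seen and had log2FC of −0.088 and −0.27, below the cutoff. Mat1a, the catalytic subunit of a separate methionine adenosyltransferase, rose by 1.27 in the 6-library panel and had a log2FC of 0.48, below the cutoff, in the 12-library panel. Aldh7a1, a mitochondrial aldehyde dehydrogenase, had a log2FC of −0.71 in the 6-library panel (−0.48 after quantile normalization, below the cutoff) and −0.58, below the cutoff, in the 12-library panel. All changes called in this paragraph had an adjusted p at or below the cutoff.

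ATF4 and 13 of its known targets outside the pathway were listed for comparison, and 9 of these 14 genes passed in the 6-library panel, 2 higher and 7 lower, and 6 in the 12-library panel, 1 higher and 5 lower, beside 26.8% and 25.5% of all genes. Their median log2FC was −0.59 and −0.16. Chac1, which degrades glutathione, had log2FC of −1.56 and −1.80, and Cebpb, a transcription factor, −1.85 and −1.67. Slc7a11, the cystine transporter, had log2FC of −1.84 and −1.12, and Ddit4, an inhibitor of mTOR signalling, rose by 1.03 and 2.34. Named after their values were seen, Atf4 itself had log2FC of 0.32 and 0.45, higher with MYC but below the fold cutoff in both panels, and Asns, asparagine synthetase, rose by 0.81 in the 6-library panel and had a log2FC of 0.033 in the 12-library panel. The genes of this list that passed were thus mostly lower with MYC, and not all members lay on that side.

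**Figure D3:**
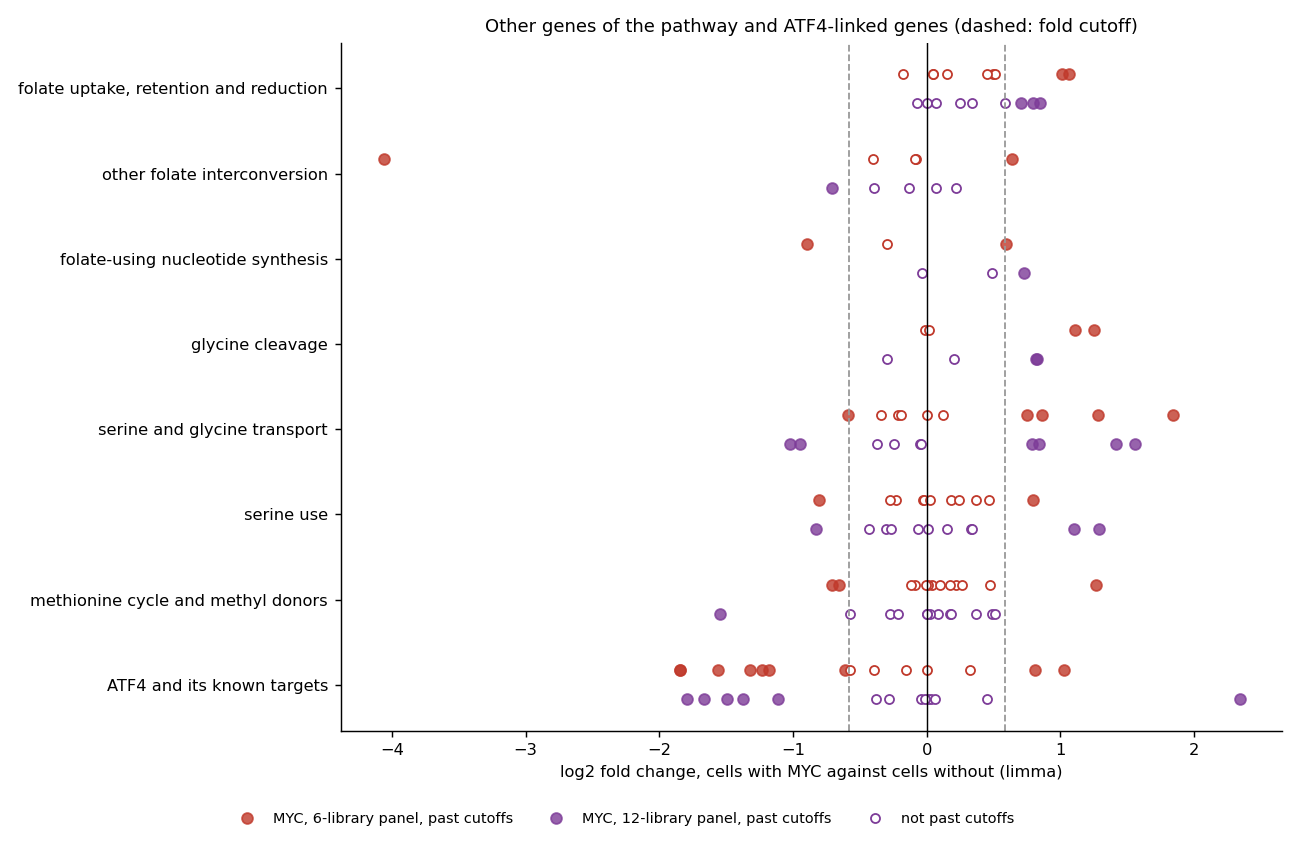
Log2 fold change with MYC of each other gene of the pathway and of the ATF4-linked genes, by list, in the 6-library panel (red) and the 12-library panel (purple). Filled points passed both cutoffs, open points did not, and dashed lines mark the fold cutoff; in the glycine cleavage row the same 2 genes, Amt and Gcsh, lie beyond the right-hand line in both panels, and the point at −4.06 is Aldh1l1.

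To ask which genes depend on AHR, siAHR-2 and siAHR-5 cultures were each set against siCtrl cultures of the myc-/- + MYC cells. AHR is a transcription factor that small molecules, among them tryptophan metabolites, activate. None of the 9 enzymes passed the cutoffs with either siRNA: limma called 0 with siAHR-2, where 0.47% of all genes passed (0.159% higher and 0.311% lower), and 0 with siAHR-5, where 2.33% did (1.48% higher and 0.849% lower). At an unadjusted p below 0.05, 7 of 9 differed with siAHR-2 and 7 with siAHR-5, beside 40.4% and 47.8% of all genes, and at an adjusted p below 0.05 7 differed (2 higher and 5 lower, against 29.3% of all genes) and 6 (0 higher and 6 lower, against 39.2%). The groups did not overlap for 7 enzymes with siAHR-2 and for 7 with siAHR-5, against 43.3% and 50.5% of all genes. Summed fibroblast markers were 20.26 to 20.28 with siCtrl, 20.01 to 20.05 with siAHR-2 and 19.99 to 20.01 with siAHR-5 on a log2 scale. Vim lay on the same side as these sums, at 19.42 to 19.48 with siCtrl and 18.95 to 19.01 with siAHR-5. Not all markers did. Thy1 was 11.34 to 11.44 with siCtrl and 12.12 to 12.18 with siAHR-5. Pdgfrb (11.68 to 11.83 and 12.27 to 12.40) and Col1a1 (15.05 to 15.08 and 15.23 to 15.32) were also higher with siAHR-5. The part of these markers in the values of the enzymes was not tested. Both comparisons use the same siCtrl cultures, which are also those with MYC in the 12-library panel, so the values are given side by side.

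Shmt2 differed between the 2 siRNAs. It was 14.49, 14.56 and 14.51 with siCtrl, 14.96, 14.99 and 14.97 with siAHR-2 and 14.24, 14.32 and 14.28 with siAHR-5, so that siAHR-2 cultures lay above and siAHR-5 cultures below all siCtrl cultures. Its log2FC was 0.45 with siAHR-2 (95% confidence interval 0.40 to 0.51, adjusted p = 4.08e-04) and −0.24 with siAHR-5 (95% confidence interval −0.31 to −0.17, adjusted p = 0.00235), both below the fold cutoff. Compared directly, Shmt2 was lower with siAHR-5 than with siAHR-2 by a log2FC of −0.69 (SE 0.0245, adjusted p = 6.52e-05), a fold of 1.62. It was the only one of the 9 enzymes that passed in this comparison, in which 2.18% of all genes passed (1.33% higher and 0.849% lower). At an adjusted p below 0.05, 4 of the 9 differed between the siRNAs, against 39.1% of all genes, and for 5 the groups did not overlap, against 49.5%.

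Mthfd1 was 15.83, 15.88 and 15.87 with siCtrl, 15.71, 15.71 and 15.77 with siAHR-2 and 15.45, 15.41 and 15.43 with siAHR-5. Its log2FC was −0.13 and −0.43 (adjusted p = 0.0109 and 2.31e-04), and the siAHR-5 cultures were 0.30 below the siAHR-2 cultures (adjusted p = 3.56e-04), under the fold cutoff. All siAHR-5 cultures lay above the myc-/- cultures, which reached at most 14.56. Shmt1 had log2FC of 0.062 with siAHR-2 and −0.19 with siAHR-5, and the direct difference of −0.25 (adjusted p = 3.19e-04) was below the fold cutoff as well. Its groups lay in the same order as those of Shmt2, without overlap. They were 13.85 to 13.88 with siAHR-2, 13.79 to 13.82 with siCtrl and 13.60 to 13.63 with siAHR-5.

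In the serine branch the 2 siRNAs differed by less than the fold cutoff. Phgdh was between 13.65 and 13.76 with siCtrl, 13.48 and 13.52 with siAHR-2, and 13.51 and 13.53 with siAHR-5, and its log2FC was −0.20 and −0.18. The direct difference was 0.015, with a 95% confidence interval of −0.029 to 0.060. Psat1 had log2FC of −0.14 and −0.24, and its values of 15.42 to 15.46 with siAHR-2 and 15.29 to 15.38 with siAHR-5 did not overlap, a direct difference of −0.097 (adjusted p = 0.0377). Psph had log2FC of −0.097 and −0.092. Mthfd1l had log2FC of −0.17 and −0.13. The intervals of Mthfd2 (−0.035 to 0.042 with siAHR-2 and −0.038 to 0.055 with siAHR-5) and of Aldh1l2 (−0.026 to 0.052 and −0.029 to 0.082) included 0.

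**Figure D4:**
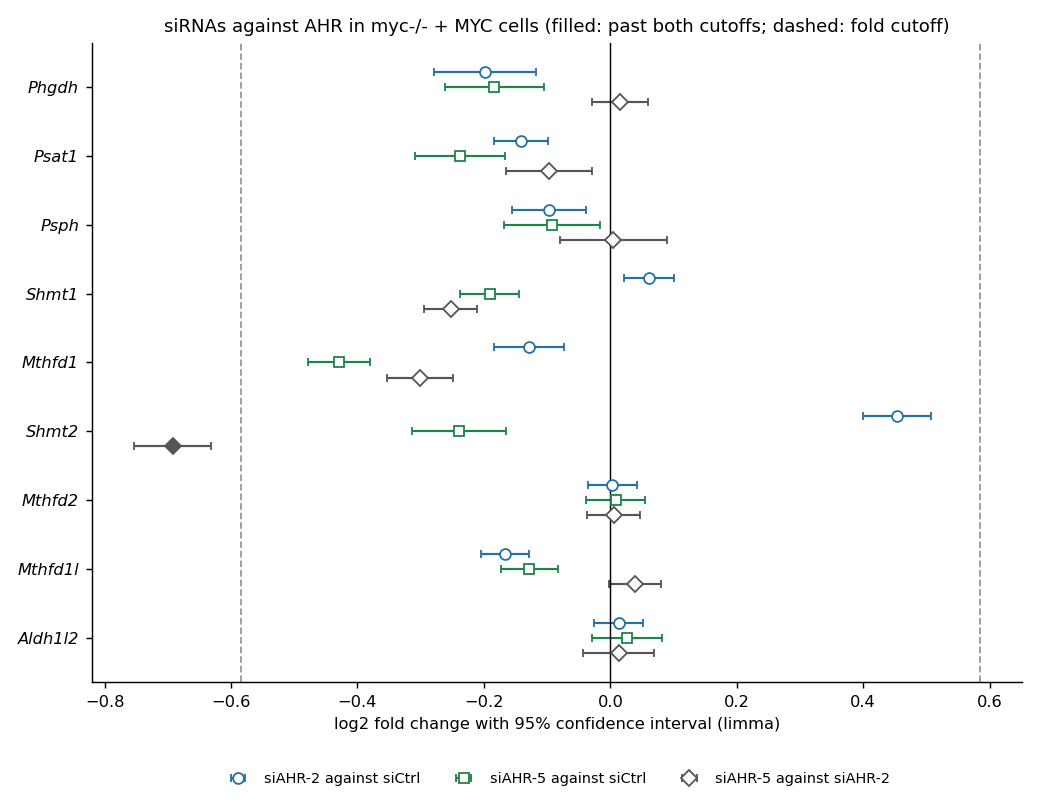
Log2 fold change of each enzyme with siAHR-2 (circles) and siAHR-5 (squares) against siCtrl, and of siAHR-5 against siAHR-2 (diamonds), with 95% confidence intervals from limma. The filled diamond of Shmt2, at −0.69, is the only value beyond a dashed fold cutoff line.

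Of the 55 other pathway genes, limma called 0 with siAHR-2 (27 at an unadjusted p below 0.05) and 2 with siAHR-5, both higher (30 at an unadjusted p below 0.05). Past the cutoffs, 0.47% and 2.33% of all genes were called. At the unadjusted p the counts are 49.1% and 54.5% of the list, beside 40.4% and 47.8% of all genes. Slc6a9, a plasma membrane glycine transporter, rose by 0.68 with siAHR-5 (adjusted p = 4.52e-04) and had a log2FC of −0.18 with siAHR-2. Its values were 13.31 in all 3 siAHR-5 cultures and between 12.44 and 12.46 in siAHR-2 cultures, and the direct difference of 0.86 passed the cutoffs (adjusted p = 3.39e-05). Mat1a rose by 0.60 with siAHR-5 (adjusted p = 0.00163), a call lost with the replicate block, after quantile normalization or median centring, and without replicate 3 of siAHR-5 or of siCtrl.

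Among the 14 ATF4-linked genes, Chac1 was the 1 gene called with siAHR-2 (log2FC −0.60, adjusted p = 6.11e-04), a call lost without replicate 3 of siCtrl (−0.56) and with the replicate block, under which 0 genes in all were called with siAHR-2, against 62. Of all genes 0.47% were called with siAHR-2. With siAHR-5, 3 of the 14 were called, all higher, beside 2.33% of all genes: Ddit4 (0.66), Slc7a11 (0.65, and 0.56 after quantile normalization, below the cutoff) and Ddit3, a stress-induced transcription factor (0.63, and 0.57 after median centring, below the cutoff). In the direct comparison 4 were higher with siAHR-5 than with siAHR-2, beside 2.18% of all genes called, among them Chac1 (0.80), Slc7a11 (0.78) and Trib3 (0.65), all with an adjusted p below the cutoff. Shmt2 moved the other way between the same cultures.

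Over the 12 libraries of the 12-library panel, the genes whose values followed Phgdh most closely were Ybx1, P4hb and Scrn1, with Pearson r of 0.995, 0.995 and 0.995. For Mthfd2 they were Cklf (0.849), LOC100911370 (0.835) and Sema4f (0.830). The 12 libraries fall into 4 groups with and without MYC, which the points of these correlations share, and genes were ranked by r among all those with a mean of at least 1. The lower r for Mthfd2 goes with its range of 13.54 to 13.59 over these libraries.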

How the data were processed

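RNA-seq was measured in 18 libraries, 6 groups of 3, with group and replicate number taken from the sample titles and columns matched by the sample descriptions; the columns of the 6-library panel are headed control and Myc. The authors aligned reads to rn6 with HISAT2 2.1.0, dropped genes whose reads over all libraries came to fewer than 10, used DESeq2 to normalize and deposited values on a log2 scale for 13188 genes. The counter, annotation, treatment of reads shared between gene copies, and transformation are not given in the sources used here. The values are labelled log CPM but, taken off the log scale, sum to between 86.3 and 161 times the total that CPM would give, so no counts or depth can be recovered and log2FC of low genes may be too small.

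Groups were compared with limma 3.58.1 (eBayes, trend = TRUE) in R 4.3.3, only the groups compared entering a fit, with Benjamini-Hochberg adjustment over all genes. The difference between the MYC effects was a contrast of 4 groups (12 libraries). The fits were tested on simulated data. Alternatives were an FDR of 0.05 without a fold cutoff, all 18 libraries in one fit, no trend, quantile normalization, median centring, the replicate block, a pseudocount of 1, a filter on means below 1, comparisons as labelled across the panels, and leaving out each library.

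The 9 genes, the lists and the comparisons were chosen with earlier results of these data known. Named besides the 9 were Myc, Ahr, up to 3 genes per list with the largest log2FC past the cutoffs, and the 3 genes most alike to Phgdh and Mthfd2. Of the listed genes, 3 were not analysed here, and 1 gene that the rule names is not reported here. Promoters came from RefSeq (GRCr8). Figures used matplotlib 3.10.9.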

Additional observations from a re-analysis of the deposited data

Results flagged for a closer look

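The effect of MYC on 2 of the 9 enzymes differed between the panels of libraries by a test of the difference itself, an interaction contrast over 12 libraries. For Psat1 the difference, 12-library panel minus 6-library panel, was −1.70 (adjusted p = 5.20e-13), from log2FC of 1.25 and −0.45. For Phgdh it was −0.89 (adjusted p = 6.87e-08), from 0.19 and −0.70. For both genes 3 of 3 cultures with MYC lay above all cultures without it in the 6-library panel, and 3 of 3 lay below them in the 12-library panel. The panels differ in scale and in the transfection label that goes with MYC, and the part of either in these differences was not tested. Leaving out each library in turn gave differences of −1.73 to −1.68 for Psat1 and −0.93 to −0.84 for Phgdh. With 3 cultures a group, single cultures that stand apart were not looked for in any other way.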

How the results depend on the processing

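Over the alternatives, values of the 9 enzymes kept direction and side of the cutoffs in 758 cases, newly passed in 35 (30 of them from dropping the fold cutoff) and reversed in 35. Among the reversed, the rises of Mthfd1 and Shmt1 in the 6-library panel also lost their calls when matched across the panels, and no enzyme lost its call in the other alternatives. No value has a known depth, so depth sets no limit that can be stated, and differences of low genes such as Aldh1l2 cannot be read. Without the fold cutoff (adjusted p below 0.05), 9 of the 9 enzymes and 41 of 55 other pathway genes were called with MYC in the 6-library panel, 7 and 41 in the 12-library panel, 6 enzymes for the difference of the panels (Aldh1l2 among them, beside 54.9% of all genes), 7 and 22 with siAHR-2, 6 and 24 with siAHR-5, and 4 enzymes between the siRNAs. For all genes these shares were 76.2%, 64.7%, 29.3%, 39.2% and 39.1% for the 6-library panel, the 12-library panel, siAHR-2, siAHR-5 and between the siRNAs. Leaving out each library gave 3 to 4 and 17 to 18 calls in the 6-library panel, 3 and 17 to 19 in the 12-library panel, 2 enzymes for the difference, 0 enzymes with either siRNA, 1 to 2 pathway genes with siAHR-5 (1 without replicate 3 of siAHR-5 or of siCtrl), and 1 enzyme between siRNAs. Median centring, quantile normalization and the replicate block each also left 1 pathway gene with siAHR-5.

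Matched on the transfection label across the panels, myc-/- + MYC against myc-/- called 5 enzymes, all lower, and 38 pathway genes, where 66.5% of all genes were called (52.4% lower), with reversed values for Aldh1l1 (0.67), Gart (−0.62), Gcsh (−0.48), Mat1a (−0.75), Mtfmt (−0.38), Mthfd1 (−0.24), Mthfd2 (−2.13), Phgdh (−1.64), Psat1 (−1.42), Psph (−1.78), Shmt1 (−0.29), Slc19a1 (−0.46) and Slc25a38 (−0.42). Under siCtrl it called 7 enzymes, all higher, and 40 pathway genes, where 9231 of 13188 genes were called (51.6% of all genes higher), with reversed values for Aldh1l2 (0.0605), Chac1 (0.61), Mthfd1l (0.13), Mthfd2 (2.51), Phgdh (1.13) and Psat1 (2.23). These comparisons span the 2 scales by construction.

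The other reversed values were small. They were, after median centring, Aldh1l2 0.0426 and Mthfd2 0.0163 with MYC in the 12-library panel, Mthfd1l 0.0455 for the difference of the panels, Aldh1l2 −0.0177 and Mthfd2 −0.0278 with siAHR-2, Aldh1l2 −0.0333 and Mthfd2 −0.0510 with siAHR-5, and Aldh1l2 −0.0156, Mthfd2 −0.0232, Phgdh −0.0133 and Psph −0.0238 between the siRNAs. After quantile normalization they were Aldh1l2 0.00579 and Mthfd2 0.0322 in the 12-library panel. Without single libraries Aldh1l2 ranged from −0.0123 to 0.0119 with MYC in the 12-library panel, Psph from −0.0213 to 0.0679 for the difference, and Mthfd2 from −0.00479 to 0.0116 with siAHR-2. Between the siRNAs, Aldh1l2 ranged from −0.00672 to 0.0325, Mthfd2 from −0.00182 to 0.0156 and Psph from −0.0214 to 0.0272. The cause was not tested.

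Mean correlations of same-numbered cultures were −0.0287 and −0.0136 for MYC in the 6-library and 12-library panels, and 0.0101 for siAHR-2. They were 0.0974 for siAHR-5 and 0.0889 between the siRNAs. In that order, 0, 1, 2, 4 and 4 of 6 samples correlated best with their own number. By replicate number, r was 0.242, −0.0269 and −0.256 for MYC in the 12-library panel. It was 0.218, 0.139 and −0.065 for siAHR-5, and −0.00833, 0.132 and 0.143 between the siRNAs. Some same-numbered cultures thus correlated weakly in these comparisons. The replicate block called 3539, 3304, 0, 271 and 266 of all genes, against 3538, 3361, 62, 307 and 287, and left the counts of the 9 enzymes at 3, 3, 0, 0 and 1. Chac1 with siAHR-2 and Mat1a with siAHR-5 lost their calls under it.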
